A study of Mus musculus with 4 samples.

Results

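The DNA replication and G1/S genes described here are 37 genes that act from the commitment of a cell to the cell cycle to the copying of its chromosomes. They were chosen from a list of symbols by function, covering origin licensing and helicase proteins, DNA polymerases and fork proteins, nucleotide synthesis, chromatin copying and the E2F and cyclin E genes. All 37 were matched by Entrez gene number among the 26611 genes of the deposited count table, and all 37 passed the filter on low counts. RNA was sequenced from natural killer (NK) cells of the spleen in 4 libraries, each from its own mouse of the C57BL/6 background, 2 wild type (WT) and 2 Tcf7 knock-out (KO). Cells of both genotypes were sorted as negative for TCRbeta and positive for NK1.1, NKp46, CD11b and KLRG1. The labels give no age or sex of the mice and do not say whether the knock-out was restricted to a cell type. The comparison asks how these genes differ when Tcf-1, the transcription factor encoded by Tcf7, is missing.

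A chromosome is copied from origins at which the Cdc6 and Cdt1 proteins load the ring-shaped Mcm2 to Mcm7 helicase during G1. At the start of S phase the helicase is activated by Mcm10, Cdc45 and the GINS complex, and DNA polymerases, the PCNA clamp and its loader RFC follow it. E2F factors, released from the Rb protein when cyclin D and cyclin E kinases are active, switch on most of these genes, so their transcripts are generally low in resting cells and rise at the G1/S boundary. Mature splenic NK cells are mostly quiescent and divide when stimulated by cytokines or infection.

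The promoters of these genes are printed because the E2F site is the element for which the set is known. RefSeq windows (GRCm38.p6, the mm10 build) reaching from 250 bases before to 50 bases after a gene's start were found for 32 of the 37 genes. The site was searched on both strands as the words TTTCCCGC, TTTGGCGC, TTTCGCGC and TTTGCCGC. At least 1 word was present for 12 of the 32 genes (37.5%), against 4.85% of the 9714 tested genes with a window and 2.60% of all 27025 genes with one. The 12 were Mcm3, Mcm5, Mcm6, Mcm7, Cdc6, Cdt1, Pola1, Pold1, Rfc3, Lig1, Uhrf1 and E2f2. A match is a run of letters, not a shown binding site, and a window without one lacks only these letters. For 6 of them a stretch upstream of the start is given 5′ to 3′ on the strand of the gene, with the matched word, or 2 overlapping words, in capitals. The first 4 belong to genes whose log2 difference between genotypes was 0.16 or less, and the last 2, Cdc6 and Uhrf1, to genes that stood higher in KO cells.
Mcm6 (chr1:128359778-128359841, minus strand): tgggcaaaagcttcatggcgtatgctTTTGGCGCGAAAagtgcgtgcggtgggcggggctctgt
Mcm5 (chr8:75109330-75109393, plus strand): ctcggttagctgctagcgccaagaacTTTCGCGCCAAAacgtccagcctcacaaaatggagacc
Mcm7 (chr5:138172015-138172074, minus strand): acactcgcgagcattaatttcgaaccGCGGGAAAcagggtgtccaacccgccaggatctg
Pola1 (chrX:93632260-93632319, minus strand): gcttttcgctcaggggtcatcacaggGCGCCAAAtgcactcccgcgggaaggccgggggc
Cdc6 (chr11:98907987-98908046, plus strand): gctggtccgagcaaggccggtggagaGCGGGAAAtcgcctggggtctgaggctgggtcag
Uhrf1 (chr17:56304102-56304161, plus strand): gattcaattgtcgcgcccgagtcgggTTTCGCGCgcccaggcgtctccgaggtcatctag

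The matched words began 110 bases before the start in Mcm6, 153 in Mcm5, 165 in Mcm7, 138 in Pola1, 138 in Cdc6 and 185 in Uhrf1. The Uhrf1 word lay in the second of its RefSeq windows. By role, a word was found for 6 of 9 helicase loading and activation genes with a window, 4 of 11 polymerase and fork genes, 0 of 5 nucleotide synthesis genes, 1 of 4 chromatin, histone mRNA and uracil repair genes and 1 of 3 E2F and cyclin E genes. Mitosis genes differed in their promoters, with an E2F word in 1 of 34. The words TTTGAA and TTCGAA of the cell cycle homology region (CHR), an element of late cell cycle genes, were in 26 of those 34 (76.5%), against 6 of 32 (18.8%) of the replication and G1/S genes and 16.8% of the tested genes with a window. The CCAAT box (CCAAT on either strand) was in 18 of 32 (56.2%), against 43.5% of tested genes. The words CTTTGAT and CTTTGAA, which a Tcf/Lef factor can bind and the second of which contains the CHR word TTTGAA, were in 1 of 32 (3.12%, Fen1), against 7.08% of tested genes.

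The libraries held 28254693 to 40175537 counts. Tcf7 stood at 89.5 and 79.1 CPM (counts per 1000000 in the library, TMM-scaled) in WT and at 11.2 and 25.0 CPM in KO cells. All 12 NK cell markers were read, with Ncr1 at 1510 to 1730 CPM over the 4 libraries. The libraries also parted by their replicate number, 1 or 2, in both genotypes. Neutrophil and granulocyte precursor markers summed to 36.9 and 1.93 CPM over 15 genes in WT and to 464 and 100.2 CPM in KO cells. Of the KO sums, S100a8 made up 118 and 22.4 CPM and S100a9 122 and 22.3 CPM. Mpo and Elane, of granulocyte precursors, made up 11.3 and 2.97 CPM and 6.24 and 0.915 CPM. Erythroid and platelet markers summed to 45.4 and 33.2 CPM over 13 genes in WT and to 228 and 134 CPM in KO cells. Stem and early progenitor markers summed to 58.1 and 30.6 CPM over 10 genes in WT and to 13.0 and 13.5 CPM in KO cells. Kit made up 50.3 and 21.9 CPM of this in WT and 5.11 and 7.21 CPM in KO cells. Precursor cells of blood can divide, and the part of these transcripts in the differences given here was not tested.

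Most of the abundant replication genes, such as Mcm2 to Mcm7, had nearly the same level in both genotypes. Several scarcer genes (Cdc6, Ccne1, Ccne2, E2f1, Tk1, Uhrf1 and Mcm10), and the more abundant E2f2 and Rrm2, stood higher in both KO libraries, while Gins1, Gins2, Pole and Chaf1a, also scarce, overlapped between genotypes. None of the 37 passed edgeR's quasi-likelihood test after adjustment over 12723 genes (adjusted p = 1.00 for each; 0% of all genes passed). DESeq2 called none either (smallest adjusted p = 0.333, for E2f2; 0.558% of all genes passed). At an unadjusted p under 0.05 edgeR had 6 of 37 higher in KO (E2f2, Uhrf1, E2f1, Rrm2, Tk1 and Ccne1), against 1.7% of all tested genes, and 0 lower, against 1.14%. DESeq2 had 8 of 37 higher at that level, against 1.96%, and 0 lower, for which no share over all tested genes was computed. The edgeR count of 6 changed with each library left out, and no share over all tested genes was computed for those fits. With the replicate number as a block in the edgeR fit, 13 of 37 had an unadjusted p under 0.05 and were higher, against 5.42% of tested genes, and E2f2 and Rrm2 passed the adjusted test (adjusted p = 0.0131 and 0.0276), against 1.74%. The log2 fold change (KO minus WT) was above 0 for 33 of 37, against 48.2% of all tested genes, and the median was 0.20, against -0.01. Leaving out KO library 2 moved that median up to 0.45, and leaving out WT library 2 moved it up to 0.31. The lowest median with 1 library left out lay below 0.20. Both KO libraries lay above both WT libraries for 18 of 37 genes, against 9.64% of tested genes, and below for 1 (Mcm2), against 11.6%. Summed over the 37, the level was 1436 and 1441 CPM in WT mice and 1633 and 1536 CPM in KO cells.

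**Figure D1:**
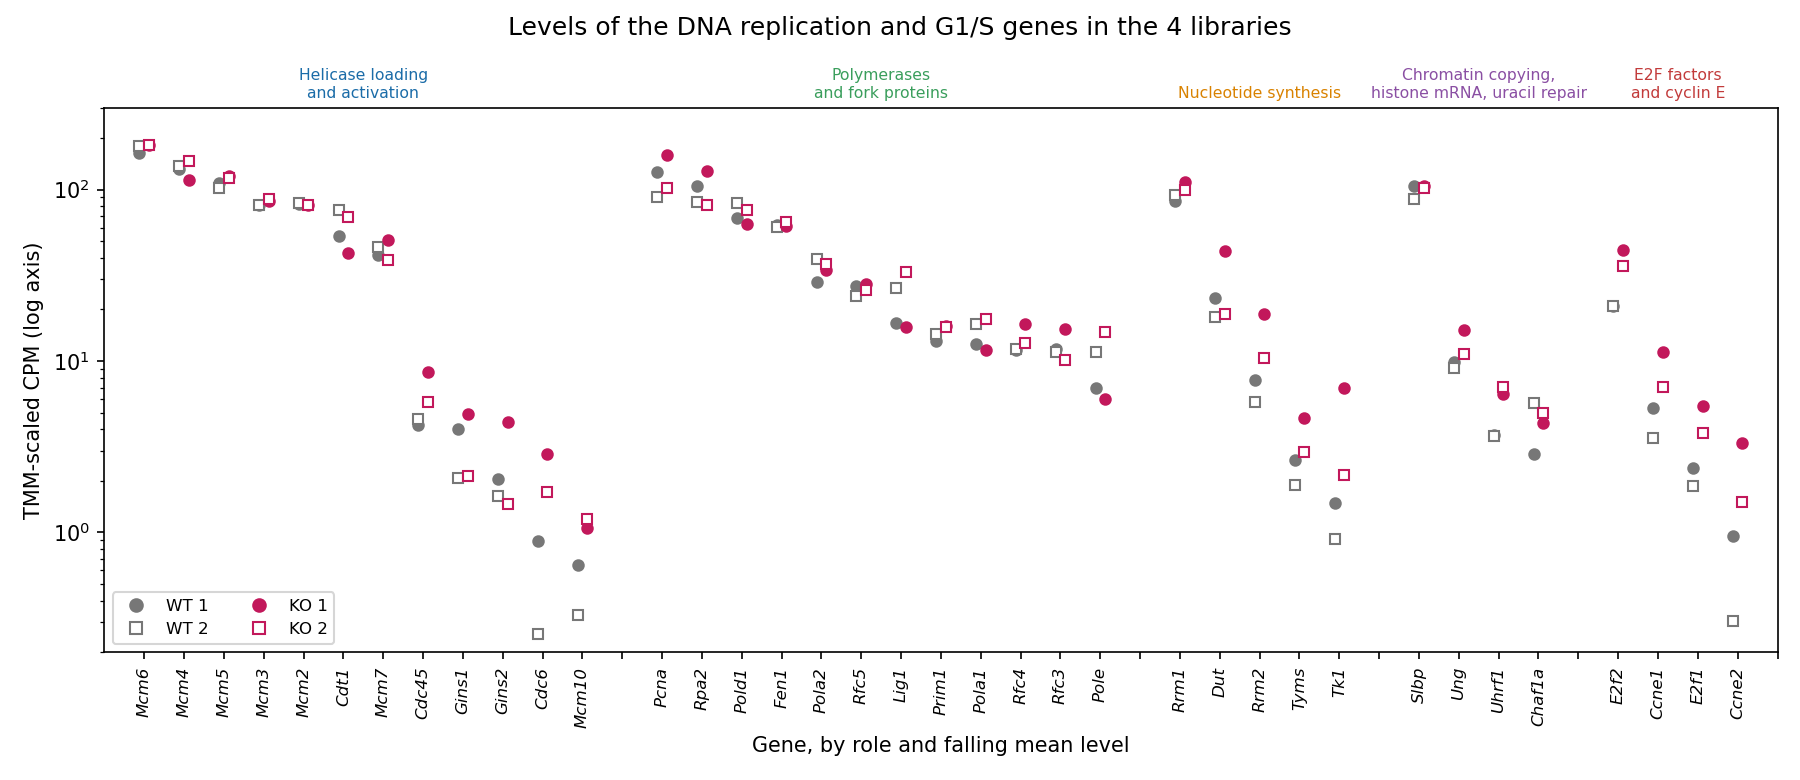
Level of each of the 37 genes in the 4 libraries, as TMM-scaled CPM on a log axis, grouped by role and ordered by mean level; circles are libraries numbered 1, squares those numbered 2, grey is WT and magenta KO. Mcm2 to Mcm7 lie between 38.8 and 182 CPM with the genotypes intermixed or close together. All 4 E2F and cyclin E genes have both KO libraries above both WT libraries, against 9.64% of tested genes.

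The E2F and cyclin E genes, which drive entry into S phase, stood higher in both KO libraries in all 4 cases. Both KO libraries lay above both WT libraries for 9.64% of tested genes, and 4 genes are too few to compare. In sorted bulk RNA, a larger number of expressing cells and more RNA of a gene per cell cannot be told apart. E2f2 (Entrez gene 242705; mm10 chromosome 4, 136172274 to 136196057), an activating E2F, was read at 21.0 and 20.9 CPM in WT mice and at 44.2 and 35.7 CPM in KO cells. Its means were 20.9 ± 0.0925 and 40.0 ± 5.98 CPM (SD, n = 2 each), a 1.91-fold difference, with a log2 fold change of 0.93 (SE 0.23) and an unadjusted edgeR p of 0.0119. The KO libraries did not overlap the WT libraries, and the WT pair was nearly equal. E2f1 (Entrez gene 13555; chromosome 2, 154559400 to 154569892), the other activating E2F on the list, stood at 2.37 and 1.86 CPM in WT mice and 5.49 and 3.80 CPM in KO cells, with a log2 fold change of 1.13 (SE 0.38).

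Cyclin E binds Cdk2 and carries cells from G1 into S phase. Ccne1 (Entrez gene 12447; chromosome 7, 38097984 to 38107490) was at 5.29 and 3.54 CPM in WT mice and 11.3 and 7.02 CPM in KO cells, with a log2 fold change of 1.05 (SE 0.39), or 0.67 without KO library 1. Ccne2 (Entrez gene 12448; chromosome 4, 11190433 to 11204779), its paralog, was among the scarcest members, at 0.954 and 0.306 CPM in WT mice and 3.34 and 1.50 CPM in KO cells. Those levels rest on 31, 12, 98 and 54 counts, and the log2 fold change of 1.94 had an SE of 0.78 and an unadjusted edgeR p of 0.0619. It was 2.96 without WT library 1 and 1.26 without KO library 1. For all 4 genes the lowest KO library lay above the highest WT library, against 9.64% of tested genes. The median log2 fold change of the 4 was 1.09.

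The nucleotide synthesis genes supply the building blocks of DNA, and all 5 had a log2 fold change above 0, with a median of 0.75. The median was 0.38 without KO library 1 and 1.12 without KO library 2. Ribonucleotide reductase makes deoxyribonucleotides from a large subunit (Rrm1) and a small subunit (Rrm2). Rrm2 (Entrez gene 20135; chromosome 12, 24708254 to 24714146) was read at 7.72 and 5.73 CPM in WT mice and 18.7 and 10.4 CPM in KO cells, with a log2 fold change of 1.11 (SE 0.39), or 0.63 without KO library 1. Rrm1 was read at 85.9 and 93.2 CPM in WT mice and at 110 and 99.0 CPM in KO cells, with a log2 fold change of 0.22 (SE 0.20). Within this enzyme the scarcer subunit thus had the larger difference, and neither passed the adjusted test.

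Tk1 (Entrez gene 21877; chromosome 11, 117815519 to 117826087), the cytosolic thymidine kinase of S phase cells, was at 1.48 and 0.917 CPM in WT mice and 6.96 and 2.16 CPM in KO cells. The log2 fold change was 1.93 (SE 0.71), and KO library 1 was the highest by a wide margin; without it the value was 0.86. Tyms, which encodes thymidylate synthase, was at 2.65 and 1.88 CPM in WT mice and 4.67 and 2.94 CPM in KO cells without overlap of the groups, a log2 fold change of 0.75 (SE 0.43). Dut, which encodes the enzyme that removes dUTP, was at 23.4 and 18.0 CPM in WT mice and at 44.0 and 18.8 CPM in KO cells. For Dut the difference rested on KO library 1, since KO library 2 lay between the WT libraries. A transcribed pseudogene, Tyms-ps, is annotated, so the counts of Tyms are less certain.

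The helicase genes gave the plainest case of similar levels. Mcm6, the most abundant of the Mcm2 to Mcm7 subunits per length, was at 162 and 179 CPM in WT mice and at 182 and 182 CPM in KO cells. Mcm2 was at 82.9, 83.2, 81.5 and 81.7 CPM, Mcm3 at 81.3, 81.4, 85.2 and 88.3 CPM and Mcm5 at 109, 102, 120 and 117 CPM, each in the order WT 1, WT 2, KO 1 and KO 2. Mcm4 was at 132 and 138 CPM in WT mice and 114 and 148 CPM in KO cells, and Mcm7 at 41.4 and 46.1 against 51.0 and 38.8 CPM. Over the 6 subunits the log2 fold change ran from -0.04 to 0.16, with a median of 0.06 and a median SE of 0.19. Mcm2 shows that groups without overlap can differ by little, since its KO mean was 0.983 times its WT mean.

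The proteins that load and activate this helicase were scarcer and more varied. Cdc6 (Entrez gene 23834; chromosome 11, 98907709 to 98923942), a loader, was at 0.892 and 0.255 CPM in WT mice and 2.86 and 1.72 CPM in KO cells, from 29, 10, 84 and 62 counts. Its log2 fold change of 2.00 (SE 0.76) was the highest of the 37, with an unadjusted edgeR p of 0.0520. It was 3.15 without WT library 1 and 1.38 without WT library 2. Cdt1, the other loader, was at 53.6 and 76.3 CPM in WT mice and 42.5 and 69.1 CPM in KO cells, and its log2 fold change of -0.22 (SE 0.35) was the lowest of the 37. The genotypes overlapped for Cdt1, and its direction turned with 1 library left out (0.09 without KO library 1 and 0.07 without WT library 2).

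Mcm10 (Entrez gene 70024; chromosome 2, 4990724 to 5012791) was the scarcest member by CPM, at 0.646 and 0.331 CPM in WT mice and 1.06 and 1.19 CPM in KO cells, with a log2 fold change of 1.21 (SE 0.57). Cdc45, a part of the active helicase, was at 4.21 and 4.56 CPM in WT mice and 8.59 and 5.80 CPM in KO cells (log2 fold change 0.71, SE 0.33). Both of these had the KO libraries above the WT libraries. The GINS genes overlapped, with Gins1 at 4.03 and 2.09 against 4.88 and 2.14 CPM. Gins2 was at 2.06 and 1.63 against 4.40 and 1.47 CPM. Its log2 fold change of 0.67 (SE 0.64) turned below 0 without KO library 1. Of 3900 annotated exon bases of Gins2, 70.7% lie under exons of Gse1 on the other strand. The deposited length of Gins2 is 1038 bases, and the overlap within that counted part was not measured. The strand setting of the counting is not given in the sources used here. Whether reads of Gse1 entered the Gins2 counts is therefore not known.

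The polymerase and fork genes differed little. None of the 12 had an unadjusted edgeR p under 0.05, against 1.7% higher and 1.14% lower over all tested genes. Log2 fold changes ran from -0.12 (Pold1) to 0.32 (Rfc4), with a median of 0.15. Pcna, the sliding clamp and the highest member per length at a mean of 178 TPM (transcripts per 1000000, corrected for gene length), was at 127 and 90.2 CPM in WT mice and 159 and 102 CPM in KO cells. Its genotypes overlapped, since KO library 2 lay below WT library 1, and the log2 fold change was 0.27 (SE 0.32). Pcna-ps1 and Pcna-ps2 are annotated pseudogenes that could take some of its reads.

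Pold1, the catalytic subunit of polymerase delta, was at 68.0 and 83.6 CPM in WT mice and 63.2 and 76.4 CPM in KO cells. Pole, that of polymerase epsilon, was at 6.92 and 11.3 against 6.00 and 14.8 CPM. In both genes the libraries ordered by number rather than by genotype. The primase and polymerase alpha genes Pola1, Pola2 and Prim1, which start each new strand, had log2 fold changes of 0.01, 0.05 and 0.20 (SE 0.31, 0.26 and 0.21).

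The clamp loader genes Rfc3, Rfc4 and Rfc5 had log2 fold changes of 0.14, 0.32 and 0.08. Of the 12, Rfc4 and Prim1 had both KO libraries above both WT libraries, against 9.64% of tested genes. Rpa2, a subunit of the protein that coats single-stranded DNA, was at 105 and 84.6 CPM in WT mice and 129 and 81.8 CPM in KO cells. Lig1, the ligase that joins Okazaki fragments, was at 16.6 and 26.6 against 15.7 and 33.2 CPM. Fen1, the flap nuclease acting before that ligase, was at 61.7, 60.1, 60.9 and 64.8 CPM in the order WT 1, WT 2, KO 1 and KO 2, but 78.8% of its annotated exon bases lie under those of Gm10143 on the other strand.

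Of the 4 genes for copying chromatin, histone messages and uracil repair, Uhrf1 had the largest difference. Uhrf1 (Entrez gene 18140; chromosome 17, 56303337 to 56323486) brings the maintenance DNA methyltransferase to newly copied DNA. It was read at 3.72 and 3.67 CPM in WT mice and 6.44 and 7.02 CPM in KO cells, with a log2 fold change of 0.87 (SE 0.28) and an unadjusted edgeR p of 0.0302. The 2 libraries of each genotype were close, and the genotypes did not overlap. Ung, which removes uracil from DNA, was at 9.85 and 9.11 in WT against 15.1 and 11.0 CPM in KO libraries, a log2 fold change of 0.46 (SE 0.27). Slbp, the histone stem-loop binding protein gene, was at 104 and 88.2 against 104 and 102 CPM. Chaf1a, a subunit of the chromatin assembly factor, was at 2.86 and 5.65 against 4.33 and 4.97 CPM with overlapping genotypes. Of its 5535 annotated exon bases, 33.6% lie under Ubxn6 on the other strand. Its deposited length is 3308 bases, and the overlap within that counted part was not measured.

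Per length, the most abundant members were Pcna (178 TPM), Slbp (115 TPM), Mcm6 (115 TPM), Rpa2 (105 TPM) and Mcm4 (70.2 TPM), as means over the 4 libraries. The lowest were Mcm10 (0.434 TPM), Cdc6 (0.564 TPM) and Ccne2 (0.872 TPM). Split at a mean of 10 CPM, a boundary chosen after the values were seen, the 24 members at or above it had a median log2 fold change of 0.12 and the 13 below it 0.87, with all 13 above 0. Over all tested genes the medians on both sides of that boundary were -0.01. Spearman's rho between the mean CPM level and the log2 fold change was -0.70 across the 37 genes and -0.00 across the 12723, given as a description since all genes come from the same 4 libraries. The scarce genes have larger errors, with a median SE of 0.54 below the boundary and 0.24 above it. E2f2 and Rrm2 are the members above the boundary with an unadjusted p under 0.05.

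**Figure D2:**
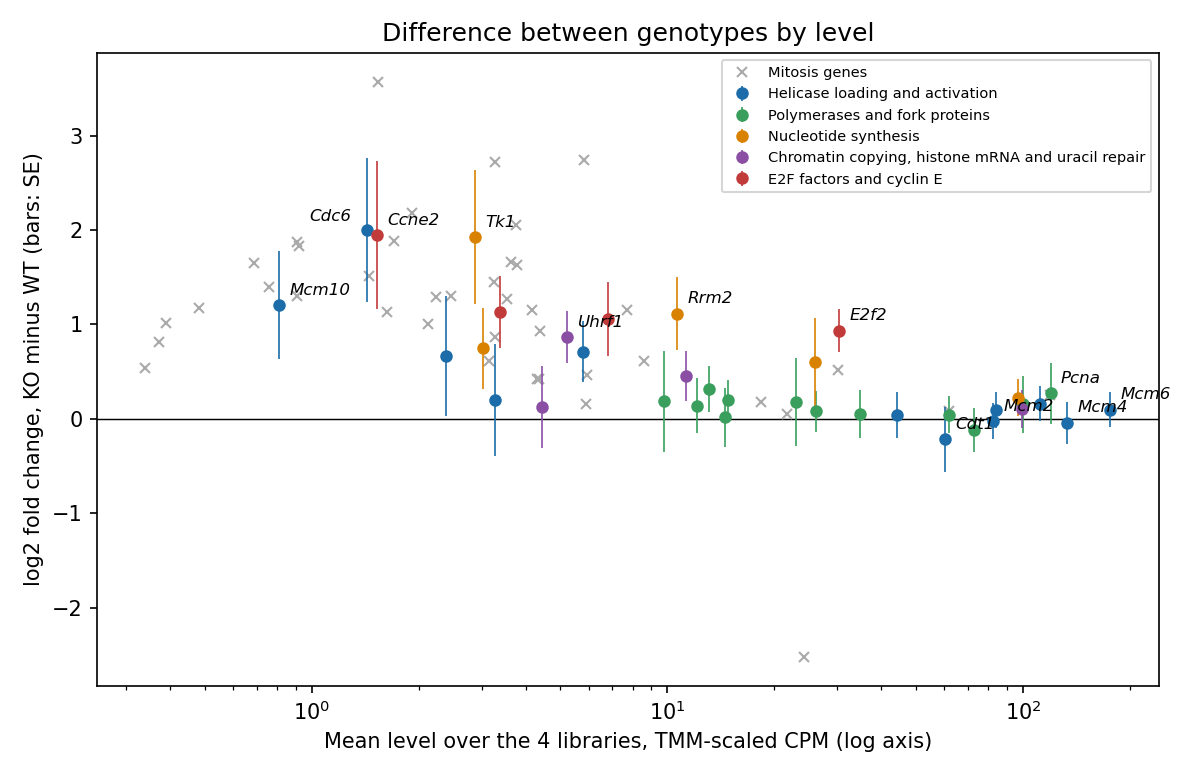
Log2 fold change (KO minus WT) with its SE against the mean level over the 4 libraries (TMM-scaled CPM, log axis) for the 37 genes, coloured by role, with mitosis genes as grey crosses without error bars. The abundant members from Mcm2 to Pcna lie near 0, and Cdc6, Ccne2 and Tk1 lie near 2 at levels under 3 CPM.

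Within libraries of the same number the KO to WT log2 ratio was above 0 for 28 of 37 genes in number 1 and for 28 of 37 in number 2, against 45.9% and 49.4% of all tested genes. The ratio was above 0 in both numbers for 22 of 37 (26.2% of tested genes) and below 0 in both for 3, Mcm2, Cdt1 and Pold1 (30.9% of tested genes). Medians were 0.33 in number 1 and 0.12 in number 2, beside -0.03 and -0.00 for all tested genes. For the E2F and cyclin E genes the ratios were alike in both numbers, 1.07 and 0.77 for E2f2, 1.18 and 0.99 for E2f1, 1.08 and 0.97 for Ccne1 and 1.71 and 1.98 for Ccne2. Uhrf1 (0.78 and 0.92), Rrm2 (1.27 and 0.85) and Cdc6 (1.58 and 2.36) also kept their direction. Tk1 (2.16 and 1.15), Cdc45 (1.01 and 0.34), Dut (0.90 and 0.07) and Gins2 (1.06 and -0.14) had the larger ratio in number 1, and Mcm10 (0.63 and 1.58) in number 2. Each ratio compares 1 library with 1 other and has no error of its own.

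**Figure D3:**
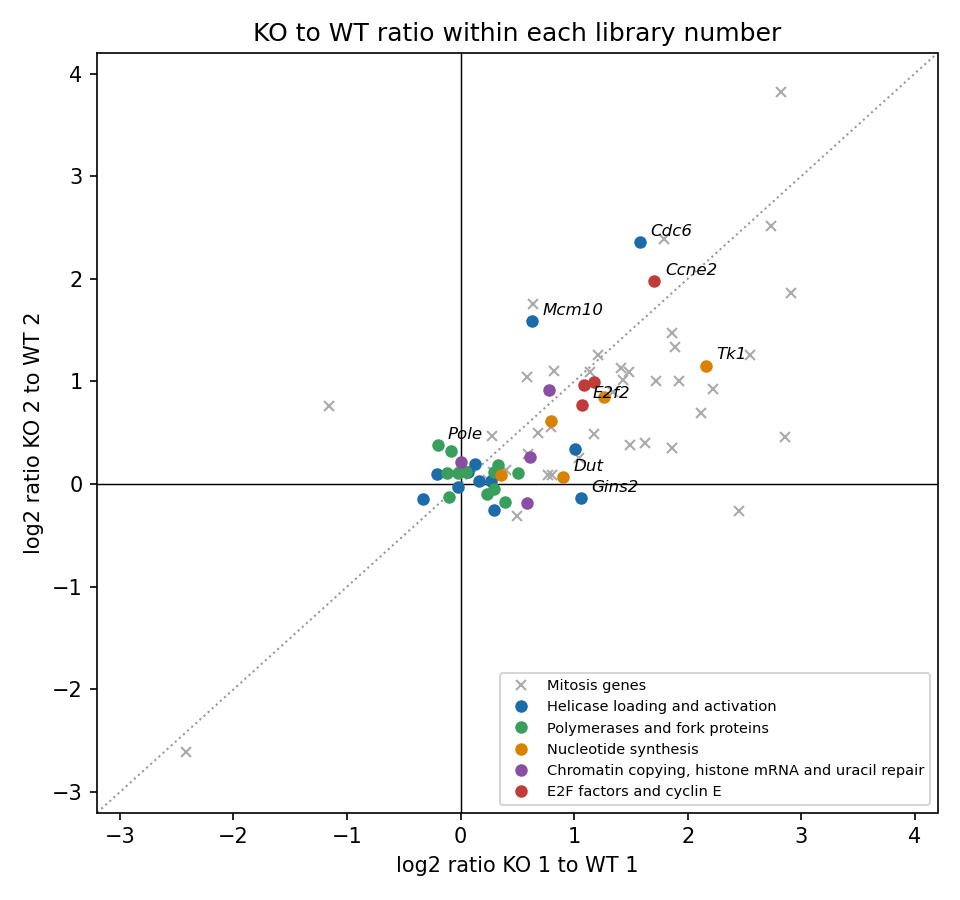
Log2 ratio of KO to WT between the libraries numbered 1 (horizontal) and between those numbered 2 (vertical), with 0.1 CPM added, for the 37 genes coloured by role and for mitosis genes as grey crosses; the dotted line marks equal ratios. Of the 37 genes, 22 lie above 0 on both axes, with Cdc6, Ccne2 and Tk1 farthest out, and Dut and Gins2 lie near the horizontal axis.

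The difference between library numbers was as large as that between genotypes for many members, and it was related to gene length. Pole, at 7129 bases the longest, had log2 ratios of library 2 to library 1 of 0.70 in WT and 1.28 in KO cells, and Lig1 had 0.67 and 1.08. At the short end Gins2 (1038 bases) had -0.32 and -1.52, Gins1 (1161 bases) -0.92 and -1.15 and Tk1 (1369 bases) -0.63 and -1.64. Cdc6 and Ccne2, which are not short, had -1.48 and -0.70, and -1.38 and -1.11. Spearman's rho between length and the mean of the WT and KO ratios was 0.45 across the 37 genes and 0.53 across all tested genes. The KO minus WT difference itself had a rho with length of -0.03 across the 37 and -0.18 across all tested genes. The labels do not say what the library numbers stand for. With 2 mice per genotype, the main p-values weigh the difference between genotypes against the spread within genotypes, moderated over all tested genes. That spread includes the difference between library numbers.

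**Figure D4:**
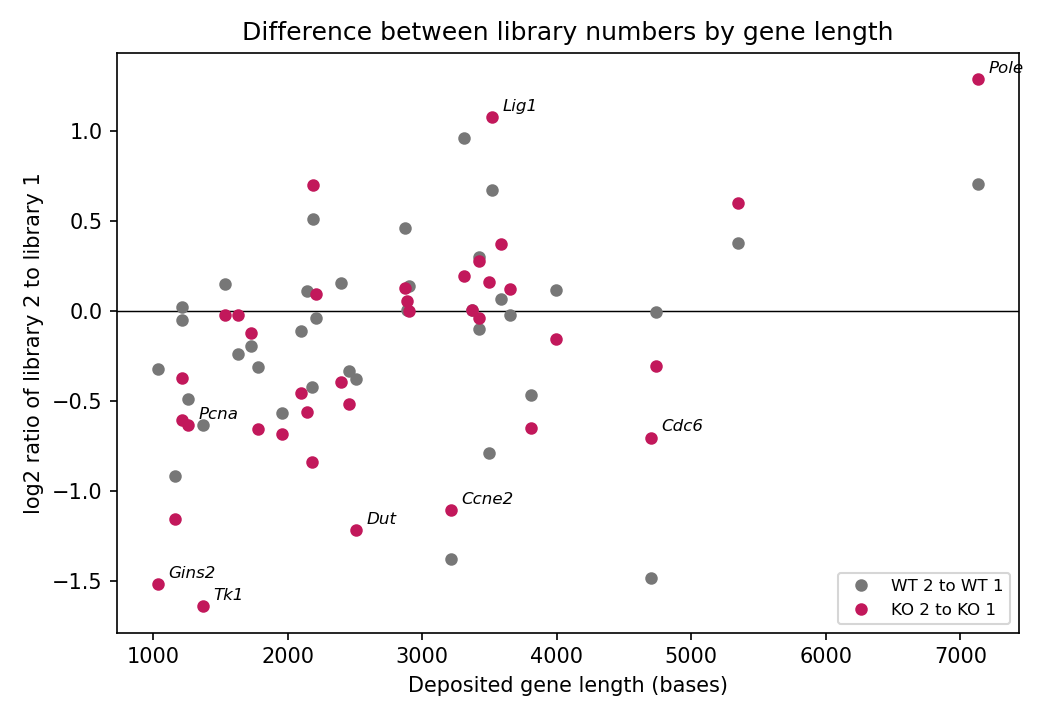
Log2 ratio of library 2 to library 1 within WT (grey) and within KO (magenta) against the deposited gene length in bases for the 37 genes. Short genes such as Gins2 and Tk1 lie below 0 and the longest gene, Pole, lies above 0 in both genotypes.

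Other genes of the same machinery were taken from fixed lists. Of 45 further replication genes, none passed the adjusted edgeR test. Their median log2 fold change was 0.13 (0.038 without KO library 1 and 0.20 without KO library 2). It was above 0 for 36 of 45, against 48.2% of tested genes. At an unadjusted edgeR p under 0.05, 0 of the 45 were lower in KO (1.14% of tested genes) and 2 were higher (1.7%). These were the checkpoint adaptor gene Clspn (0.523 and 0.356 CPM in the WT libraries, with 1.30 and 1.55 CPM in those of KO mice) and the topoisomerase gene Top2a (7.35 and 12.6 against 20.5 and 21.3 CPM). The histone chaperone gene Asf1b was at 11.5 and 12.7 against 19.1 and 17.0 CPM, and Pole2, a subunit of polymerase epsilon, at 6.61 and 6.85 against 10.7 and 8.85 CPM. The origin recognition genes Orc1 to Orc6, which mark the sites where the helicase is loaded, had a median of 0.15. Both KO libraries lay above both WT libraries for 0 of the 6, against 9.64% of tested genes, and 6 genes are too few to compare. Pole4 (0.17) and Rnaseh2c (-0.08) were the highest of this list per length.

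None of 16 further nucleotide supply genes had an unadjusted edgeR p under 0.05, against 1.7% higher and 1.14% lower over all tested genes. Their median was 0.09. The salvage and balance genes Tk2 (mitochondrial thymidine kinase) and Rrm2b (the small reductase subunit used outside S phase) had log2 fold changes of -0.44 (SE 0.28) and -0.29 (SE 0.23), beside 1.93 and 1.11 for their S phase counterparts Tk1 and Rrm2. The purine synthesis gene Atic had a log2 fold change of -0.26 (SE 0.19). Samhd1, which breaks down deoxyribonucleotides and is abundant in these cells, was at 245 and 414 CPM in WT mice and 207 and 499 CPM in KO cells, ordered by library number. Paics, of purine synthesis, had 0.14.

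Of 31 tested genes of the Rb, cyclin and Cdk step, 3 were higher at an unadjusted edgeR p under 0.05, against 1.7% of tested genes. At that level 1 was lower, against 1.14%. E2f8, a repressor E2F that is itself made in S phase, was at 0.308 and 0.255 CPM in WT mice and 1.64 and 1.72 CPM in KO cells. Its log2 fold change was 2.57 (SE 0.49), with an adjusted p of 0.0591 in DESeq2 and of 1.00 in edgeR. Ccna2, the S and G2 phase cyclin A gene, was at 3.35 and 1.37 against 15.1 and 5.05 CPM, and Fbxo5, an inhibitor of the anaphase-promoting complex, at 2.40 and 2.27 against 6.96 and 3.94 CPM. Cdkn1c, which encodes the Cdk inhibitor p57, was the lower gene, at 5.63 and 7.49 against 2.90 and 2.69 CPM, a log2 fold change of -1.23 (SE 0.32). The abundant cyclin D3 gene Ccnd3 (0.07) and Cdk inhibitor gene Cdkn2d (-0.10) differed little relative to their SE of 0.26 and 0.28, and the median of the list was 0.07, running from 0.010 to 0.24 with 1 library left out.

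The mitosis genes, which act once replication is complete, had a median of 1.15 over 40 genes, against 0.20 for the 37 replication and G1/S genes; this difference between lists was not tested. Of these 40 genes, 14 were higher at an unadjusted edgeR p under 0.05, against 1.7% of tested genes, and 1 was lower, against 1.14%. None passed the adjusted edgeR test, and DESeq2 called 2 after adjustment (Ccnb2 and Pttg1), against 0.558% of tested genes. Their level was also lower, with a median of 3.27 CPM against 14.8 CPM. The 6 mitosis genes at 10 CPM or above had a median of 0.13, and the 34 below it 1.28. Ccnb2 (2.74), Aurkb (2.06) and Espl1 (2.18) stood higher in KO cells, Cenpa (0.51) and Racgap1 (0.25) were the most abundant per length, and Pttg1, the securin gene, was the lower one (-2.52).

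Of the transcripts of other blood cells, neutrophil and erythroid markers stood higher in KO cells in the same libraries. Their median log2 fold changes over tested markers were 4.56 and 1.84. The median was 0.67 for macrophage and monocyte markers and 0.04 for B and plasma cell markers. It was -0.10 for T cell markers and -0.18 for stem and early progenitor markers. In the T cell list 4 of 11 tested genes had a log2 fold change above 0. Among them Trac was at 5.88 and 8.30 CPM in WT libraries and at 94.0 and 36.1 CPM in KO libraries. All 15 neutrophil and granulocyte precursor markers had a ratio above 0 in both library numbers, with medians of 4.03 and 3.89. So had 12 of 13 erythroid and platelet markers in each number, with medians of 2.10 and 0.73. Fcnb was at 0 in both WT libraries and Elane at 0 in WT library 2. KO library 1 was the highest for both lists and also for 22 of the 37 replication and G1/S genes, among them E2f1, E2f2, Ccne1, Ccne2, Rrm2, Tk1, Tyms, Cdc6 and Cdc45. KO library 2 was the highest for 9, among them Uhrf1 and Mcm10. The defining erythroid genes Klf1 and Gata1 were at 0.369 and 0.492 CPM in WT library 1 and 2.56 and 1.70 CPM in KO library 1. Between the libraries numbered 2 they were at 0.407 and 0.178 CPM in WT mice and 0.333 and 0.194 CPM in KO cells, while E2f2 was at 20.9 and 35.7 CPM and Uhrf1 at 3.67 and 7.02 CPM in that pair. B and plasma cell markers summed to 274 and 182 CPM in WT mice and 538 and 234 CPM in KO cells, T cell markers to 341 and 277 against 413 and 258 CPM. Trbc1, Trbc2 and Lat made up most of the T cell sums, at 92.5, 121 and 110 CPM in WT library 1. Macrophage and monocyte markers summed to 2399 and 2070 against 2407 and 1993 CPM, of which Ly6c2, Ccr2 and Cx3cr1 made up most in every library. These 3 were at 1282, 729 and 235 CPM in WT library 1. How much of the macrophage and T cell sums came from the NK cells themselves was not tested. Ratios of the macrophage and monocyte list were above 0 for 13 of 15 genes in number 1 (median 0.88) and for 5 of 15 in number 2 (median -0.24). Lyz2, shared by macrophages and neutrophils, was at 92.7 and 3.31 CPM in WT libraries and at 258 and 18.6 CPM in KO libraries.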

How the data were processed

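RNA of 2 WT and 2 KO libraries was measured. Each value deposited by the authors is a whole-number read count for an Entrez gene, listed with a gene length per the file headers. The submitters' processing notes name featureCounts and the mm10 build. The aligner, versions and strand setting are not given in the sources used here. Symbols and positions came from RefSeq (GRCm38.p6), matching 95.0% of gene numbers. Genes passing filterByExpr (minimum count 10; 12723 genes) were tested with the two-sided quasi-likelihood test of edgeR 4.0.16 under R 4.3.3, fitting genotype alone with TMM scaling and robust dispersions and with Benjamini-Hochberg adjustment over all of them and a threshold of 0.05. SE is the fold change divided by the root of F. Ratios within a library number used CPM + 0.1, and TPM used the deposited lengths. With 2 libraries per group, an exact permutation test gives no p under 0.333. One CPM stands for 28.3 to 40.2 counts, and a count of 0 allows 0.0747 to 0.106 CPM (3 counts; counting error only). Nothing in the labels says how the replicate numbers were assigned.

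Alternatives were DESeq2 1.42.0, limma 3.58.1 voom, DESeq2 size factors, library size only, other filters, the replicate number as a block and each library left out. The tests were checked on simulated counts first. The members, the lists and the tests were chosen with earlier results of these data known. Named in full were members with an unadjusted p under 0.05, the 5 largest differences each way, the 5 highest by TPM, the 5 lowest by CPM, and, of each other list, the 4 smallest p and the 2 highest by TPM; other members are given for completeness. One gene of another list that the rule names is not reported here.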

Additional observations from a re-analysis of the deposited data

How the results depend on the processing

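Over all 12723 genes the adjusted edgeR test called 0 genes (216 higher and 145 lower at an unadjusted p under 0.05), and 35 with no filter on low counts; DESeq2 called 71, and leaving out 1 library gave 0 to 53. The 6 members higher at an unadjusted p under 0.05 became 3 among genes of at least 5 CPM in 2 libraries (28 members tested) and 0 to 9 with 1 library left out, and the members' median of 0.20 ran from 0.14 to 0.45 when 1 library was left out. Each such fit leaves 1 library alone in its group, assumed to vary like the other group. With the replicate number as a block, edgeR called 221 genes, 13 members had an unadjusted p under 0.05 (all higher) and 2 passed the adjusted test, E2f2 (adjusted p = 0.0131) and Rrm2 (0.0276). DESeq2 with the block, added after seeing the data, called 240 genes and 3 members, E2f2 (0.00133), Rrm2 (0.0134) and Tk1 (0.0323). Deviations from the genotype means correlated at 0.80 between libraries of the same number over all tested genes; with 2 numbers this is a hint only, and the labels name no shared source. Some directions turned, among them those of Gins2 and Pcna, whose log2 fold changes were 0.67 and 0.27 with all 4 libraries. Mcm2 was 0.0028 at 5 CPM or more, and from -0.032 to 0.0066 (without KO library 2) with 1 library left out. The other ranges with 1 library left out were -0.58 to 0.091 for Cdt1, -0.21 to 0.13 for Mcm4, -0.26 to 0.054 for Pold1, -0.33 to 1.29 for Gins2, -0.080 to 0.59 for Pcna, -0.21 to 0.48 for Rpa2 and -0.13 to 0.26 for the median of the other nucleotide supply genes. Signs turned without KO library 1 for all 7 of these, and also without WT library 2 for Cdt1 (0.074), Mcm4 (0.0042) and Pold1. The causes were not tested.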
